A study of Sus scrofa with 4 samples.

Results

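The genes described here write, erase and read the chemical marks of chromatin or move its nucleosomes, and they were measured in porcine blastocysts whose oocytes had met non-esterified fatty acids (NEFAs) at a high level. They were taken by gene symbol from the platform annotation, by family names such as HDAC, SIRT, KDM, KAT, SETD, PRMT, DNMT, TET, SMARC, CHD, MBD, CBX, BRD, ARID and UHRF. No measured value entered this rule, but earlier results of these data were known when it was chosen. The choice gave 83 genes on 120 of the 43794 probes of the array, out of 10024 genes named on it. Sorted by family, they were 15 genes of writers, 23 of erasers, 17 of readers and 28 of remodellers. The 2 conditions were blastocysts from oocytes exposed to high NEFAs and blastocysts from control oocytes, with no strain, genotype, dose or exposure time given in the labels. Pools of 10 blastocysts were collected on day 7 and day 8, and which pool came from which day was not given in the sources used here. Each of 4 arrays carried NEFA RNA in one colour and control RNA in the other. The labels do not say whether there were 4 pools of each condition, and every array was taken as 1 NEFA and 1 control pool, which sets the n of 4 arrays and the 8 pools used below. NEFA RNA was in the Cy3 channel on arrays 1 and 2 and in the Cy5 channel on arrays 3 and 4. The arrays are numbered in the labels as biological replicates of 4, and no animal or culture is named, so the spread between them may be partly technical.

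In the nucleus, DNA is wound on histones, and enzymes add methyl or acetyl groups to histone tails (writers) or remove them (erasers). Readers bind histone marks through chromodomains and bromodomains, or methylated CpG in DNA through methyl-CpG domains. DNA methyltransferases of the DNMT family methylate cytosine and TET enzymes oxidise the methyl group, while SWI/SNF, ISWI and CHD remodellers use ATP to slide or evict nucleosomes. In mammals, the early embryo is known for a broad loss of parental DNA methylation and for new marks laid down around the blastocyst stage, when trophectoderm and inner cell mass separate. NEFAs are fats released from adipose tissue that also reach the fluid of the ovarian follicle.

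No measured chromatin gene passed the test for a difference between NEFA and control blastocysts, and the 4 arrays spread widely. A probe counted as measured if its signal was more than 2 SD above the average of the negative controls on that array and in that colour, in at least 3 of the 4 pools of a condition. This held for 60 of the 120 probes, which cover 45 of the 83 genes, beside 4730 of all 10024 named genes. In a limma fit over all 17290 measured probes, 0 of the 60 passed an adjusted p of 0.05, where the background share was 0% of all probes. At an unadjusted p under 0.05, the count was 0 of 60, against a background of 1.53% (265 of 17290 probes). The lowest unadjusted p among the members, 0.08, belonged to SMARCA1, the ATPase SNF2L of ISWI remodellers, and the lowest adjusted p was 1. The widest difference was also that of SMARCA1, at 0.40 on the log2 scale. None of the 60 probes reached 1.5-fold, a size that 87 of all measured probes (0.503%) reached. For a typical member, the 95% interval of the log2 ratio ran 0.40 to either side of its estimate.

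The classes differed in how many of their probes were measured. Among writer probes, 15 of 24 (62.5%) were measured, and 19 of 32 eraser probes (59.4%), 9 of 19 reader probes (47.4%) and 17 of 45 remodeller probes (37.8%) were measured too. Over all probes of the array the share was 39.5%, and over those with a gene name 43.7%. By gene, 10 of 15 writers, 13 of 23 erasers, 9 of 17 readers and 13 of 28 remodellers had a measured probe. Of all named genes, 4730 of 10024 had one. The order of the classes was the same among probes above the limit in all 8 pools, with 54.2% of writers, 34.4% of erasers, 31.6% of readers and 22.2% of remodellers. With a limit of 3 SD, readers (42.1%) stood above erasers (40.6%), with writers at 54.2% and remodellers at 35.6%. At the other end, 13 of 45 remodeller probes (28.9%) were below the limit in every pool, against 2 of 24 writer probes (8.33%). Probes of one gene could differ as much as the classes did, so these shares describe probes and not the amount of protein or RNA of a class.

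**Figure D1:**
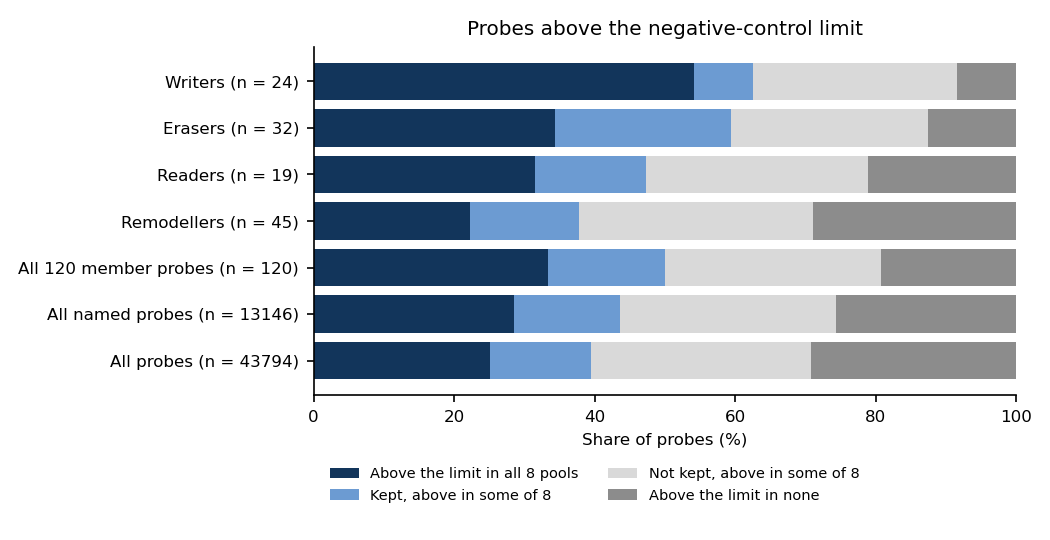
Share of probes (%) of each class by how often they exceeded the negative-control limit, with all member probes, all named probes and all probes of the array below. The darkest segment, probes above the limit in all 8 pools, ran from 54.2% of writers to 22.2% of remodellers.

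Within the families the contrast between probes was wider still, beside 39.5% measured over all probes. All 9 probes of the PRMT family and CARM1, which methylate arginines, were measured, and they cover 4 genes. So were 10 of 13 HDAC probes, which cover 5 genes, and 5 of 7 sirtuin probes, which cover 4. HDAC10 alone held 6 of the measured HDAC probes. Only 3 of 10 KDM lysine demethylase probes, 3 of 13 CHD probes and 1 of 11 ARID probes were measured. Of the 13 CHD probes, 4 were for CHD1 and 5 for CHD2. These counts thus depend on how many probes a few genes carry. The SMARC family, subunits of SWI/SNF and ISWI complexes, had 13 of 21 probes measured. Several ARID genes encode DNA-binding transcription factors that are not remodeller subunits, and none of the ARID3, ARID4 and ARID5 probes was measured.

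Enzymes of DNA methylation were mostly below the limit. DNMT3B, a methyltransferase that sets new methylation, had 3 probes, which exceeded the limit in 1 to 3 of 8 pools and were not kept. UHRF1, which brings the maintenance methyltransferase to replicated DNA, was above the limit in 0 of 8 pools, and its relative UHRF2 was above it in 3. TET3, the oxidase known for its action on the paternal genome of the zygote in mice, was likewise at 0 of 8 pools, so that TET1 was the one TET gene measured. DNMT1, DNMT3A, DNMT3L and TET2 had no probe under those symbols, and neither had, among others, EZH2, SUZ12, KDM6B, KAT8 and PRMT5. Of a panel of 42 well-known chromatin genes, 32 had a probe and 21 were measured. Among the 11 panel genes with a probe but no measured one, SIRT1, SMARCC1 and ARID1A were above the limit in 0 pools and SMARCA5 and KAT2A in 1. HDAC3 and EZH1 were above it in 4 pools, which were 2 NEFA and 2 control pools for each. A probe below the limit has only a bound on its signal here, and no difference is given for any of these genes.

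The number of member probes above the limit varied from pool to pool. Out of 120, there were 68, 75, 60 and 63 in the NEFA pools of arrays 1 to 4, against 63, 57, 63 and 74 in the control pools. NEFA pools had more on arrays 1 and 2 and fewer on arrays 3 and 4, so that the higher count was that of the Cy3 channel on all 4 arrays. Over all probes, the shares were 46.8%, 46.0%, 41.7% and 41.3% in NEFA pools and 41.0%, 38.2%, 40.4% and 48.9% in control pools. Only 3 member probes owed their place to the NEFA pools alone, those of HDAC5, MBD5 and SETD3, each above the limit in 3 NEFA and 2 control pools. Another 2, for MBD1 and SMARCB1, were kept through 2 NEFA and 3 control pools. Over all 17290 measured probes, 1985 were kept through NEFA pools alone and 1566 through control pools alone.

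The arrays did not repeat one another well, for the members or for the array as a whole. With every ratio turned to NEFA over control, the log2 ratios of the 60 member probes on arrays 1 and 2, which have the same dye orientation, had r = -0.27, and those on arrays 3 and 4 had r = -0.0128. Arrays 2 and 4, of opposite orientation, stood furthest apart, with r = -0.509 over the members and r = -0.536 over all 17290 measured probes. Arrays 1 and 4 had r = 0.311 over the members. The labelled dye orientation may be wrong, which was not tested, since no gene of known direction was at hand to check it. Every direction given here follows the labels. These values are across probes of shared arrays, which are not independent replicates. Just 1 of 60 member probes (1.67%) lay on the same side of 0 on all 4 arrays, against 7.86% of all measured probes.

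Among the writers, 7 measured probes had a NEFA over control ratio above 0 and 8 below, with a median of -0.0027 on the log2 scale. CARM1, an arginine methyltransferase that acts on histone H3 and is known to favour pluripotent fate in mouse embryos, read 8.75, 8.42, 8.34 and 8.55 in the NEFA pools of arrays 1 to 4, against 7.65, 8.32, 8.59 and 8.27 in the control pools. These values, like all levels here, are normalised log2 intensities, which can be set against each other for one probe but not between probes. The low control pool of array 1 stood apart, and the other 7 pools overlapped. The probe was above the limit in all 4 NEFA pools and in 3 of 4 control pools. Its log2 ratio was 0.31 ± 0.21 (SE, n = 4 arrays), with a 95% interval of -0.22 to 0.84. Without array 1 the estimate was 0.06. Fits with an array left out kept the dye term, so the array left alone in its colour weighed as much as the remaining pair. Such estimates are therefore not plain means of the arrays left.

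SETDB2, a histone H3 lysine 9 methyltransferase of the SET family, read 8.87, 9.22, 9.47 and 9.77 in NEFA pools, against 8.64, 9.63, 9.11 and 9.31 in control pools. The NEFA pool was the higher one on arrays 1, 3 and 4 and the lower one on array 2, and the ranges overlapped over most of their length. The log2 ratio was 0.16 ± 0.16. SETD3, whose known substrate is actin and not a histone, read 8.16, 8.76, 8.17 and 7.96 in NEFA pools, against 8.33, 8.29, 7.97 and 7.86 in control pools. One high NEFA pool, on array 2, set its difference of 0.15 ± 0.16, and without that array the estimate was -0.0088. PRMT1, the main enzyme for asymmetric arginine dimethylation, read 9.22, 9.08, 9.001 and 8.82 in NEFA pools, against 9.85, 8.45, 9.12 and 9.56 in control pools. The NEFA pools lay within the range of the control pools, and the difference was -0.21 ± 0.25.

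Other writers differed by less than their errors. EED, the subunit of Polycomb repressive complex PRC2 that binds its own mark, had ratios of -0.28, -0.06, 0.37 and -0.41 on arrays 1 to 4 and a fitted value of -0.09 ± 0.18. SETDB1, which deposits histone H3 lysine 9 trimethylation over retroelements, read from 11.29 to 12.04 in NEFA pools and from 11.55 to 11.88 in control pools. Its log2 ratio was -0.0027 ± 0.15, with a 95% interval of -0.37 to 0.36. SETD6, PRMT3 and the brightest PRMT7 probe lay between -0.06 and 0.04, and KAT5, given by pool further on, was at 0.13 ± 0.30.

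The erasers had 7 measured probes above 0 and 12 below, with a median log2 ratio of -0.02. SIRT4, a mitochondrial sirtuin that the family name brings in although its known substrates are not histones, read 7.67, 8.59, 8.57 and 8.49 in NEFA pools, against 8.98, 8.68, 8.35 and 8.79 in control pools. The NEFA pool of array 1 was far below the rest, while the other pools overlapped. The probe was above the limit in 3 of 4 NEFA pools and in all 4 control pools. The log2 ratio was -0.37 ± 0.24, with a 95% interval of -0.96 to 0.22, and -0.07 without array 1. TET1, which oxidises methylcytosine, read 9.84, 9.76, 10.01 and 9.24 in NEFA pools, against 9.98, 9.71, 9.93 and 10.00 in control pools. Only array 4 held a wide difference, of -0.76, and the ratios on the others lay between -0.14 and 0.08. Its fitted ratio was -0.19 ± 0.18, and 0.02 without array 4.

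KDM3A, a demethylase of histone H3 lysine 9, read 12.20, 12.36, 12.25 and 12.23 in NEFA pools, against 12.42, 12.09, 12.38 and 12.81 in control pools. The NEFA pools lay close together, inside the wider range of the control pools. The difference was -0.16 ± 0.17. SIRT6, a nuclear sirtuin that removes acetyl groups from histone H3, read 8.21, 7.86, 8.28 and 8.17 in NEFA pools, against 8.33, 8.05, 8.20 and 8.47 in control pools. The NEFA pool was lower on arrays 1, 2 and 4, by 0.12 to 0.29, and higher on array 3, and the fitted value was -0.13 ± 0.14.

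HDAC1 and HDAC2, class I deacetylases at the catalytic core of the NuRD, SIN3 and CoREST complexes, were measured, whereas HDAC3 and HDAC8 of that class were not. HDAC1 read 12.58, 12.65, 12.67 and 12.47 in NEFA pools, against 12.80, 12.65, 12.62 and 12.58 in control pools. HDAC2 read 12.95, 12.56, 12.87 and 12.76 in NEFA pools, against 12.94, 12.27, 12.72 and 12.81 in control pools. Both sets overlapped, with log2 ratios of -0.07 ± 0.14 for HDAC1 and 0.10 ± 0.14 for HDAC2. The 95% intervals ended at -0.41 and 0.27 for HDAC1 and at -0.25 and 0.45 for HDAC2. Of the lysine demethylases in the panel, KDM1A was not measured and KDM6B had no probe under that symbol. KDM5B, which removes histone H3 lysine 4 methylation, was at 0.06 ± 0.16, and KDM6A, the X-linked demethylase of the Polycomb mark, was at -0.11 ± 0.24. KDM6A had the NEFA pool lower on array 1 by 0.65 and higher on array 2 by 0.59, although both arrays carry NEFA RNA in the same colour. SIRT5, another mitochondrial sirtuin, had ratios of 1.21, -0.50, -0.27 and 0.45 and a fitted value of 0.22 ± 0.31.

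Among the readers, 5 of 9 measured probes were above 0, with a median log2 ratio of 0.04. MBD5, which carries a methyl-CpG-binding domain, read 7.77, 8.32, 8.26 and 8.36 in NEFA pools, against 7.39, 8.40, 7.83 and 8.20 in control pools. Arrays 1, 3 and 4 had the NEFA pool higher by 0.17 to 0.43, while array 2 had it lower by 0.08. The log2 ratio was 0.22 ± 0.15, with a 95% interval of -0.16 to 0.61, and 2 of the 4 control pools were below the limit. CBX5, the heterochromatin protein HP1 alpha, read 9.40, 10.02, 10.05 and 10.26 in NEFA pools, against 10.01, 9.93, 10.07 and 10.30 in control pools. One low NEFA pool, on array 1, carried the difference of -0.15 ± 0.17, and without that array it was 0.03.

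MBD3, the methyl-CpG-binding family member of the NuRD complex, read 9.06, 9.20, 9.06 and 8.60 in NEFA pools, against 8.93, 9.19, 8.93 and 9.61 in control pools. The pools of arrays 1 to 3 lay close together, and those of array 4 were the lowest NEFA and the highest control value. Its log2 ratio of -0.18 ± 0.22 became 0.10 without array 4. CBX3, HP1 gamma, read 11.69, 11.60, 12.32 and 11.92 in NEFA pools, against 12.004, 11.49, 12.01 and 11.58 in control pools. It was lower in the NEFA pool on array 1 and higher on the other 3, with a fitted value of 0.11 ± 0.15 and overlapping ranges. CBX1, HP1 beta, was at 0.06 ± 0.14 and MBD2, which binds methylated CpG, at 0.04 ± 0.15.

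The remodellers had 10 measured probes above 0 and 7 below, with a median log2 ratio of 0.03. SMARCA1 read 10.25, 10.45, 9.59 and 10.14 in NEFA pools, against 9.36, 9.49, 10.16 and 9.81 in control pools. The NEFA pool was higher by 0.89 and 0.97 on arrays 1 and 2 and by 0.33 on array 4, and lower by 0.58 on array 3. The fitted log2 ratio was 0.40 ± 0.19, with a 95% interval of -0.07 to 0.87, and it ranged from 0.18 without array 4 to 0.63 without array 3. The mean over the arrays with NEFA in Cy3 was 0.93 and that over the arrays with NEFA in Cy5 was -0.12. SMARCB1, a core subunit of SWI/SNF, read 8.92, 8.59, 8.50 and 8.76 in NEFA pools, against 8.02, 8.43, 8.59 and 8.53 in control pools. Again the control pool of array 1 was the low one, and the ratio of 0.30 ± 0.18 was 0.11 without that array. This SMARCB1 probe was above the limit in all 4 NEFA pools and in 3 of 4 control pools.

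CHD4, the ATPase of NuRD, read 13.32, 12.89, 13.28 and 12.84 in NEFA pools, against 12.78, 13.09, 12.96 and 12.47 in control pools. Arrays 1, 3 and 4 had the NEFA pool higher, by 0.32 to 0.54, and array 2 had it lower by 0.20. The fitted value was 0.26 ± 0.17, with a 95% interval of -0.17 to 0.68. ARID2, the subunit that defines the PBAF form of SWI/SNF, read 9.83, 9.74, 10.08 and 9.64 in NEFA pools, against 9.47, 10.52, 10.22 and 10.03 in control pools. Its ratio was above 0 on array 1 and below on the others, at -0.23 ± 0.22 in the fit. Without array 2 it was 0.05, in a fit where array 1 weighed as much as arrays 3 and 4 together. The alternative ATPases of SWI/SNF, SMARCA2 (BRM) and SMARCA4 (BRG1), were at 0.09 ± 0.22 and 0.02 ± 0.13. SMARCA4 was lower in the NEFA pool on arrays 1 and 2, by 0.38 and 0.35, and higher on arrays 3 and 4, by 0.32 and 0.50, which is the order of the dyes. CHD1, a remodeller tied to transcription elongation, was at -0.0021 ± 0.14.

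**Figure D2:**
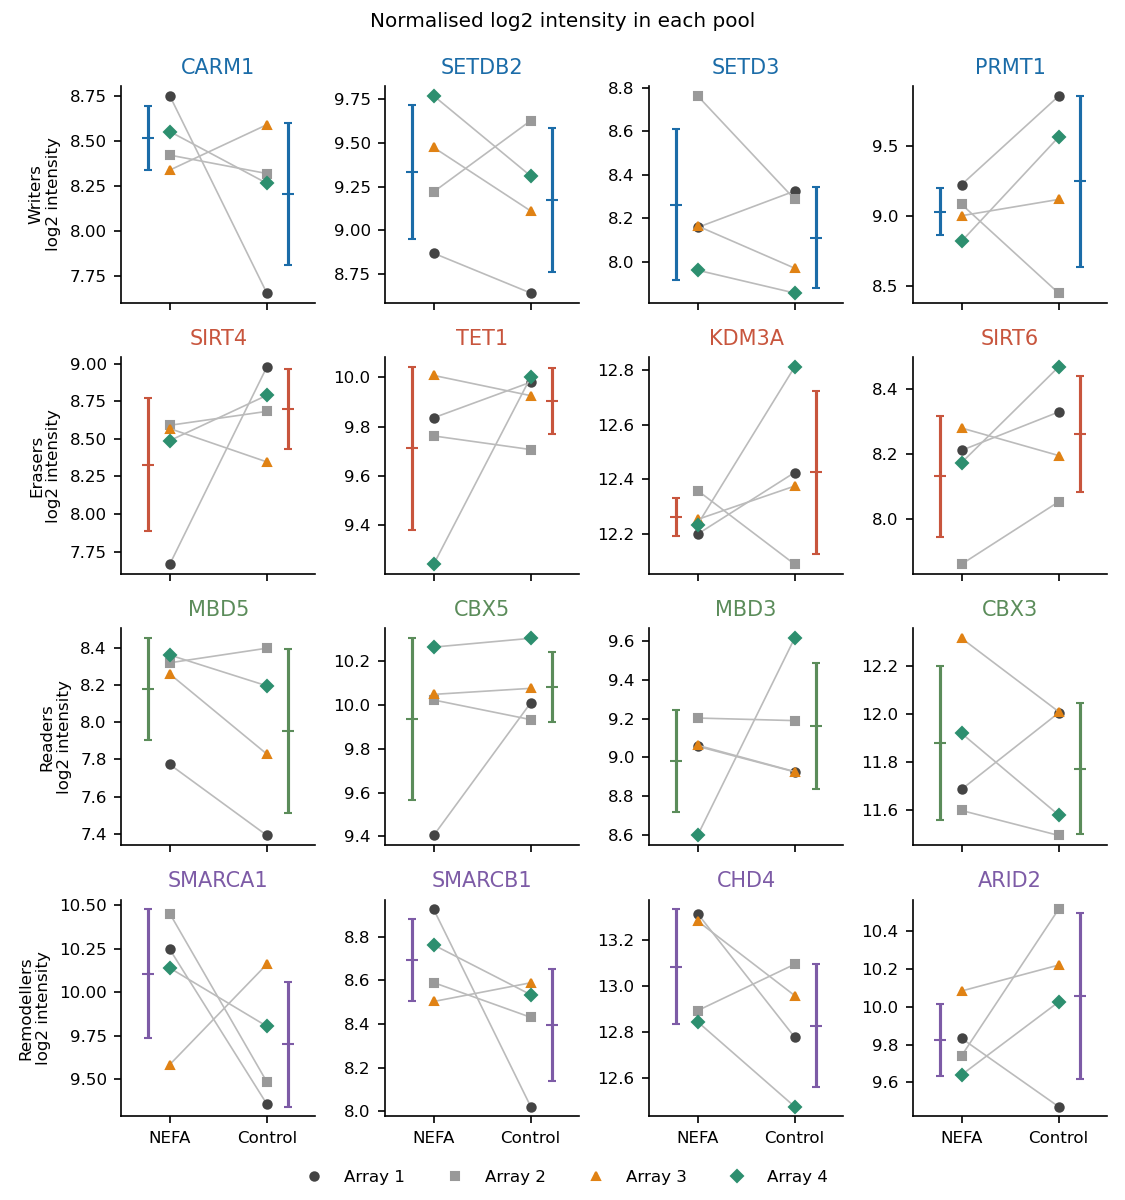
Normalised log2 intensity in each pool for the 4 genes of each class with the smallest unadjusted p, NEFA pools left and control pools right, on an axis of its own for each gene. Grey lines join pools of one array and bars give the mean ± SD of 4 pools. The pools of the conditions overlapped for each of these genes, and lines of one panel ran both ways in every case.

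Set side by side, the classes had similar medians. Their median log2 ratios ran from -0.02 for erasers to 0.04 for readers, against -0.0022 for all members and -0.0053 for all measured probes. Over the 60 probes, 29 ratios were above 0 and 31 below (48.3% above), and over all measured probes 48.6% were above. Class medians changed sign between arrays. For remodellers they were 0.05, -0.20, 0.0043 and 0.16 on arrays 1 to 4, and for writers -0.17, 0.10, -0.08 and -0.14. The SD of a class median over the 4 arrays was 0.12 for writers, 0.05 for erasers, 0.08 for readers and 0.15 for remodellers. Single member probes spread as probes in general did, with a median SD over arrays of 0.31, against 0.35 for all measured probes.

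**Figure D3:**
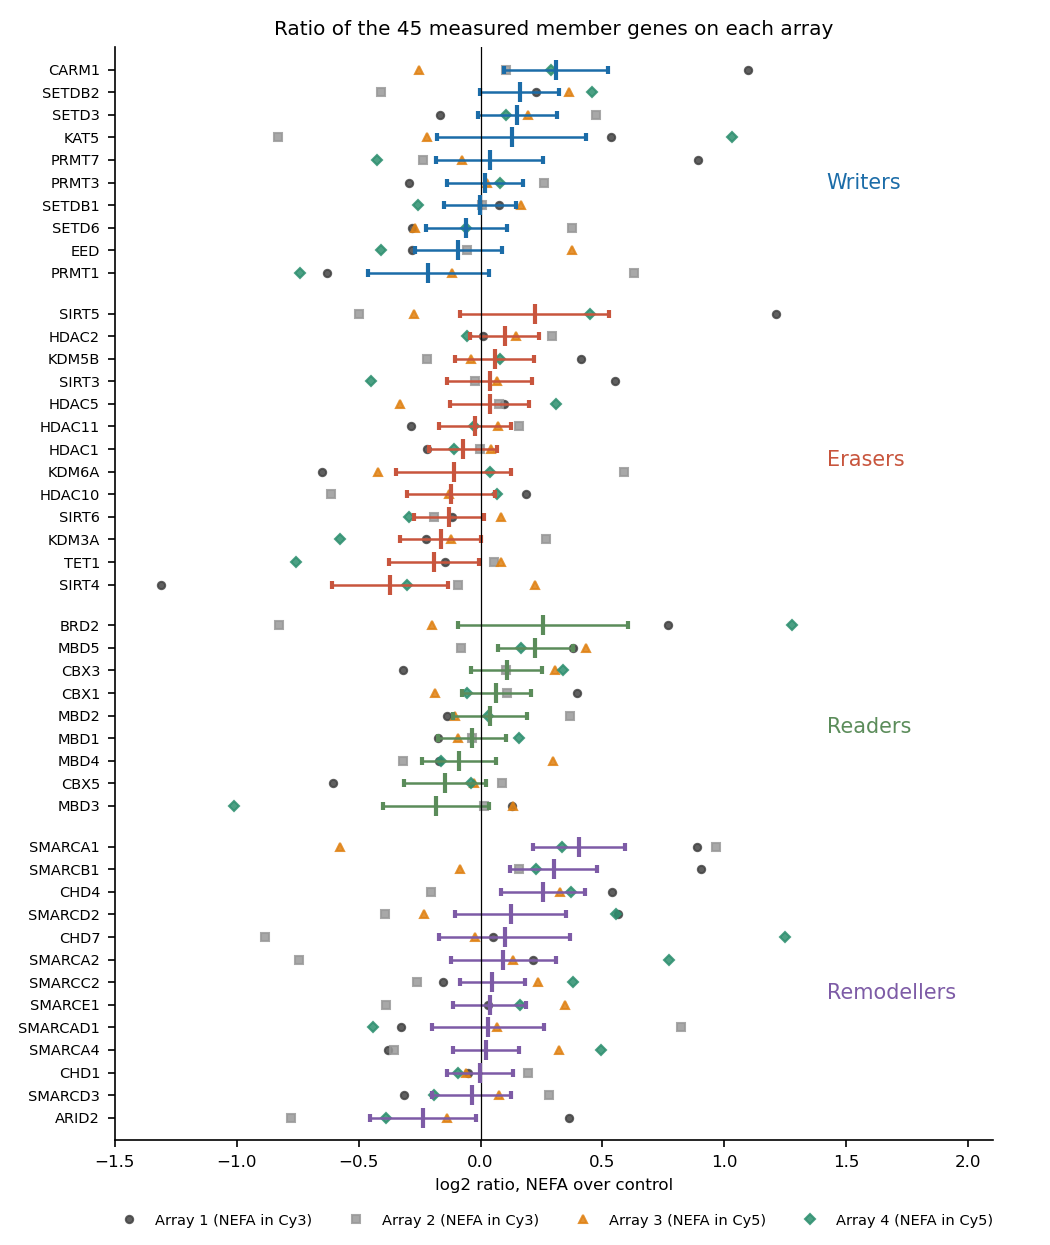
Log2 ratio of NEFA over control for the 45 measured member genes, grouped by class and ordered by fitted value. Symbols give each array, vertical ticks the fitted value and bars its SE. Fitted values stayed between -0.37 (SIRT4) and 0.40 (SMARCA1), while single arrays ran from -1.31 (SIRT4, array 1) to 1.28 (BRD2, array 4).

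A few members were far from 0 on single arrays but in opposite directions. BRD2, a bromodomain protein that binds acetylated histone H4, read 13.77, 13.17, 13.12 and 14.19 in NEFA pools, against 13.01, 13.996, 13.31 and 12.91 in control pools. KAT5, the acetyltransferase TIP60, read 14.66, 13.85, 13.89 and 15.07 in NEFA pools, against 14.13, 14.68, 14.11 and 14.04 in control pools. Both genes were higher in the NEFA pool on arrays 1 and 4 and lower on arrays 2 and 3, so that their fitted ratios were 0.26 ± 0.35 and 0.13 ± 0.30. CHD7, a remodeller of enhancers, read 10.07, 9.65, 9.94 and 10.86 in NEFA pools, against 10.02, 10.53, 9.97 and 9.61 in control pools. Its ratio was -0.88 on array 2 and 1.25 on array 4, with a fitted value of 0.10 ± 0.27. SMARCA2 followed with -0.74 on array 2 and 0.77 on array 4. In all, 13 of 60 member probes (21.7%) had arrays 1 and 4 on one side of 0 and arrays 2 and 3 on the other, against 18.7% of all measured probes. A split by dye, arrays 1 and 2 against 3 and 4, was seen for 11 member probes (18.3%), against 19.5% of all. The most frequent single exception was array 2, which stood alone against the other 3 for 12 member probes (20.0%), against 17.6% of all.

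**Figure D4:**
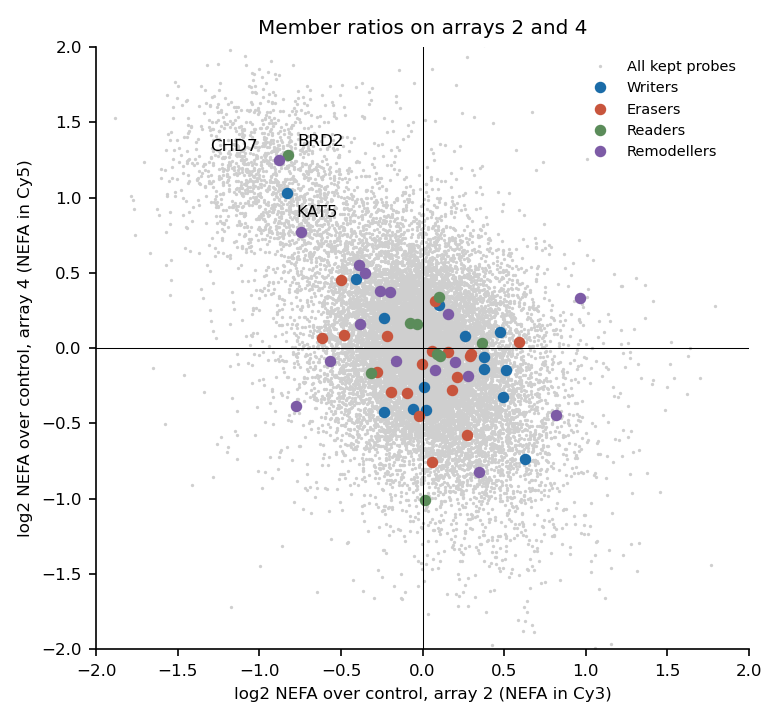
Log2 ratio of NEFA over control on array 4 (vertical) against array 2 (horizontal) for the 60 member probes, coloured by class, over all measured probes in grey. BRD2, KAT5 and CHD7 lay at the upper left, near -0.83, -0.83 and -0.88 on array 2 and at 1.28, 1.03 and 1.25 on array 4, inside a group of grey points.

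Probes of one gene did not always behave alike. Of the 83 genes, 19 had several probes, and for 9 of these some probes were measured and others were not. EED had one probe above the limit in all 8 pools and another in 0, and SMARCE1, SMARCA2 and CHD1 had the same span. No probe of CHD2, which had 5, or of KDM1A, the lysine demethylase LSD1, which had 2, was measured. All 8 genes with several measured probes had probes on both sides of 0. SMARCB1 had fitted ratios of 0.30, -0.10 and -0.15 on its 3 probes, and CARM1 had 0.31 and -0.03 on its 2. The positive values described above for SMARCB1 and CARM1 were therefore those of one probe each, the brightest, and were not repeated by the others.

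HDAC10, known as a polyamine deacetylase as well as by its family name, had 6 probes, all measured, with fitted ratios from -0.19 to 0.05. One of them read 8.24, 8.14, 8.19 and 8.27 in NEFA pools, against 8.40, 8.41, 8.34 and 8.43 in control pools. Every NEFA pool was below every control pool, which was the case for 1 of 60 member probes and 1.17% of all measured probes (203 of 17290, in either direction). Its log2 ratio was -0.19 ± 0.13, with an unadjusted p of 0.21 in the limma fit, and the other HDAC10 probes overlapped, at -0.12, -0.07, -0.0067, 0.01 and 0.05. PRMT7, which makes monomethyl-arginine, had 3 measured probes at 0.04, -0.02 and -0.15, and PRMT1 had 3 at -0.21, -0.05 and 0.01. The pairs of SIRT3 (0.04 and -0.0024), SMARCA2 (0.09 and -0.08) and SMARCE1 (0.04 and -0.11) were also split around 0.

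**Figure D5:**
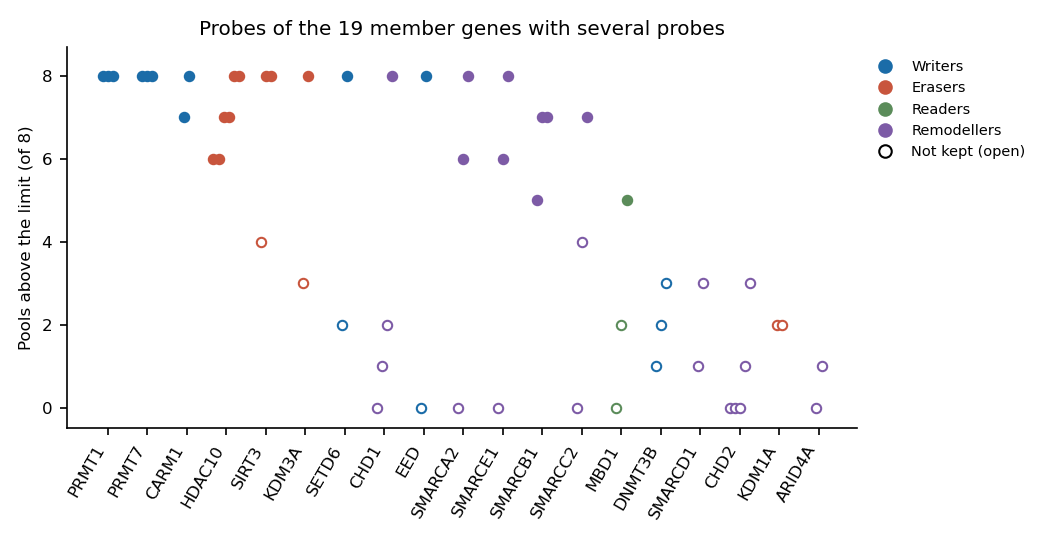
Number of pools, of 8, in which each probe of the 19 member genes with several probes exceeded the negative-control limit. Filled points are measured probes and open points are not, and the probes of EED, CHD1, SMARCA2 and SMARCE1 each span 0 to 8 pools.

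Genes outside the named families were also counted. Of 116 listed chromatin genes such as acetyltransferases, Polycomb and NuRD subunits and histone chaperones, 66 had a probe and 37 were measured. None passed the adjusted threshold, and the list's median log2 ratio was -0.05, with 15 genes above 0 and 22 below. At an unadjusted p under 0.05, 0 of the 37 were higher and 1 was lower, against 1.53% of all measured probes in either direction. The 1 was ING3, a reader subunit of the NuA4 acetyltransferase complex, which read 9.05, 8.75, 9.19 and 8.68 in NEFA pools, against 9.44, 9.27, 9.37 and 9.08 in control pools. It was lower in the NEFA pool on all 4 arrays, at -0.37 ± 0.14 with an adjusted p of 1 in the limma fit, while the pools overlapped.

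Markers of the cells in a blastocyst were checked against the label. Of 12 trophectoderm markers with a probe, 8 were measured, among them TFAP2C, GATA2, GATA3 and TEAD4, and EOMES, HAND1, KRT19 and ATP1B1 were not. Of 5 inner cell mass and epiblast markers with a probe, including SOX2, KLF4 and SALL4, 0 were measured, so that part of the blastocyst was not visible in these probes. The median log2 ratio of the 8 trophectoderm markers was -0.19, with 3 above 0 and 5 below and medians of -0.03, -0.19, 0.02 and -0.41 on arrays 1 to 4. At an unadjusted p under 0.05, 0 were higher and 1 was lower, ELF5, against 1.53% of all measured probes in either direction. The ELF5 probe was above the limit in 0 of 4 NEFA and 3 of 4 control pools. It was thus kept through the control pools alone, and such a filter by itself favours a lower NEFA value. The part of these markers in the values of the chromatin genes was not tested. In pooled embryos, fewer cells of a type and less RNA per cell cannot be told apart. Primitive endoderm had 4 of 5 markers measured (median -0.13), and the oocyte list 7 of 12 (median 0.02). Cumulus and granulosa cells had 2 of 5 measured (median -0.20, AMH and FST, with HAS2, PTX3 and INHBA not measured), and sperm had 2 of 6 (median -0.28). AMH, a granulosa cell hormone, had ratios of 0.72, -1.46, -0.39 and 1.40 on arrays 1 to 4. Its NEFA pool was the higher one on the same arrays as for BRD2 and KAT5. FST, the other marker measured in that list, had -0.98, -0.21, 0.15 and -0.82, opposite in sign to AMH on arrays 1, 3 and 4. The part of granulosa cells in the values of BRD2 and KAT5 was not tested.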

How the data were processed

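RNA of porcine blastocyst pools was amplified, labelled with Cy3 or Cy5 and hybridised to 4 two-colour arrays, per the labels. The deposited scanner tables give a median intensity per spot in both colours, and the same for the background around it, not normalised, per the file headers. A table of the authors' processed log2 ratios was used as an alternative. Set against the scanner values its direction was Cy5 over Cy3 (r = 0.907 to 0.969 with the ratios used here, slopes 0.959 to 1.22), with medians of -0.0202, -0.0233, -0.0217 and -0.023, and its centring is unknown. The submitters' processing notes name limma. Which image software was used is not given in the sources used here.

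Each array held 45220 spots, of which 43794 were probes. The median probe had an intensity of 289 to 436 in Cy3, where the background was 31 to 42, and of 220 to 289 in Cy5, where it was 46 to 71, and 38.2% to 48.9% of probes per channel were above the limit set by the 153 negative controls. The number of arrays limits the precision of every ratio. Intensities were corrected with normexp (offset 50) and normalised by loess within arrays, with control spots at weight 0 and spots with a scanner flag (35 to 75 an array, negative controls included) left out. Saturated spots, 0 in Cy3 and 2 to 45 in Cy5, were kept, and no member probe was flagged or saturated. Single-channel levels were taken after loess and Aquantile scaling. With limma 3.58.1 (R 4.3.3), ratios were modelled by a dye intercept and a NEFA term (2 residual and 3.68 prior degrees of freedom), tested two-sided, and adjusted by the Benjamini-Hochberg method over all 17290 measured probes. The procedure was tested on simulated data, with errors independent between arrays and changes larger than any fitted member ratio. That test does not bear on differences as small as those fitted here. A gene was represented by its brightest measured probe without a flag. Symbols are those of the platform's annotation, some of it possibly outdated, and all 83 are in the current pig gene table (Sscrofa11.1). No build is named for the array, so no coordinates are given, and sequences were not used here.

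Named genes were the 4 of each class with the smallest unadjusted p, a panel of 42 chromatin genes whatever their result, and genes with several measured probes. Other members were counted or listed, and CHD7, SIRT5, the HDAC10 probe given by pool and ING3 were singled out after their values were seen. The members, classes and lists were chosen with earlier results of these data known, and no test was run on a list. UHRF1BP1 entered by its symbol and is not known as a chromatin protein.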

Additional observations from a re-analysis of the deposited data

Results flagged for a closer look

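In 37 sets of 4 ratios, one for each array, 2 held a value far from the other 3 relative to the range of the set, and chance alone does this in about 1 of 20 sets. The log2 ratio of MBD3 was -1.01 on array 4, while on arrays 1 to 3 it was 0.13, 0.01 and 0.14. CHD1 had a log2 ratio of 0.20 on array 2, with -0.05, -0.06 and -0.09 on arrays 1, 3 and 4, so its outlying value was itself a small difference.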

How the results depend on the processing

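No member probe passed the adjusted threshold under any alternative that kept the labelled dye orientation. The labelled orientation was not tested and may be wrong, and the directions given rest on it. Known beforehand to change calls over all probes, exchanging the orientation of arrays 2 and 3 gave 3 member calls of 60 (BRD2, CHD7 and KAT5, 5%), against 1203 of all probes (6.96%). Exchanging arrays 1 and 4 instead would give the same calls, with every sign opposite to that of the first exchange. At an unadjusted p under 0.05, members numbered 2 of 120 with no filter on dim probes, against 865 of up to 43794 probes. With an array left out, they numbered 1, 5, 1 and 0 of 60 without arrays 1 to 4. The counts over all probes were then 373, 804, 380 and 102 of up to 17290. The share of ratios above 0 was 55% without background correction and 53.3% without the filter. With an array left out, the median ran from -0.052 to 0.073 for readers, from -0.073 to -0.023 for erasers, from -0.12 to 0.060 for writers and from -0.0088 to 0.065 for remodellers. Signs were compared only in settings that kept the labelled dye orientation, not under the exchange of arrays 2 and 3. With an array left out, the array alone in its colour weighed as much as the remaining pair. A change of sign can rest on that weighting, as for ARID2 without array 2. CARM1, CBX3, CHD4, HDAC1, HDAC2, KDM3A, MBD5, SETDB2, SIRT4, SIRT6, SMARCA1 and SMARCB1, 12 of the 33 named and measured genes, kept the sign of their log2 ratio in all of those settings. The others changed sign when an array was left out, with lowest and highest values of -0.52 and 0.050 (ARID2), -0.14 and 0.65 (BRD2), -0.0069 and 0.14 (CBX1), -0.32 and 0.028 (CBX5), -0.064 and 0.059 (CHD1), -0.29 and 0.10 (EED), -0.32 and 0.078 (HDAC10), -0.21 and 0.47 (KAT5), -0.10 and 0.22 (KDM5B), -0.42 and 0.20 (KDM6A), and -0.088 and 0.16 (MBD2). They were -0.47 and 0.10 (MBD3), -0.53 and 0.10 (PRMT1), -0.24 and 0.32 (PRMT7), -0.0088 and 0.31 (SETD3), -0.11 and 0.10 (SETDB1), -0.11 and 0.18 (SIRT3), -0.15 and 0.33 (SMARCA2), -0.022 and 0.065 (SMARCA4), -0.066 and 0.14 (SMARCE1), and -0.40 and 0.019 (TET1). Median centring in place of loess also turned KDM5B (-0.023), PRMT7 (-0.036), SIRT3 (-0.043) and SMARCE1 (-0.042), and CHD1 and SETDB1 turned without background correction (0.0085 and 0.0152) and in the authors' deposited table (0.0054 and 0.0046). All of these lie within their SE of 0 in the fit to 4 arrays, apart from ARID2 and TET1, and the cause was not tested. Detection fell to 50 of 120 member probes (41.7%) at a limit of 3 SD, against 30.1% of all probes, and to 40 if all 8 pools were required.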

Other observations

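Grouped by the mark they act on, with their values already known, the acetylation genes (HDAC, SIRT and KAT families) had 16 of 22 probes measured and a median log2 ratio of -0.0046, with 7 above 0 and 9 below. The DNA methylation genes (DNMT, TET, MBD and UHRF families) had 6 of 15 probes measured, with 2 above 0 and 4 below and a median of -0.06. CREBBP, a histone acetyltransferase and co-activator outside the named families, was singled out after its values were seen for its likeness to KAT5 and BRD2 across arrays. Its brightest probe read 12.80, 12.47, 12.01 and 13.24 in NEFA pools, against 11.72, 13.11, 12.44 and 12.34 in control pools. The NEFA pool was higher on arrays 1 and 4 and lower on arrays 2 and 3, with ratios of 1.08, -0.64, -0.43 and 0.90. In either direction, 18.7% of all measured probes had arrays 1 and 4 on one side of 0 and arrays 2 and 3 on the other. ASXL1, a Polycomb-associated gene, had 0.66, -1.28, -0.65 and 0.97, and the granulosa marker AMH 0.72, -1.46, -0.39 and 1.40. The other granulosa marker measured, FST, had -0.98, -0.21, 0.15 and -0.82, opposite in sign to AMH on arrays 1, 3 and 4.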
